A study of Mus musculus with 4 samples.

Results

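FOXA2 intervals that stand alone in the adult mouse uterus, far from any listed domain of elongating polymerase, are described here. They are the intervals of the adult FOXA2 list that overlap no FOXA2 interval of postnatal day 12 (PD12), have no other adult FOXA2 centre within 10 kb of their own centre, and have a centre 100 kb or more from the nearest edge of any RNA polymerase II domain of either stage. The rule held for 2557 of the 10373 adult FOXA2 intervals (24.7%), which are called remote solitary intervals below. They were chosen by the called positions of FOXA2 and POL2 intervals in all 4 lists, so the distances and the missing overlap that the rule sets are given as descriptions, with no test.

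The series profiled whole female mouse uterus by chromatin immunoprecipitation and sequencing (ChIP-seq), in which DNA bound by a protein is recovered with an antibody and sequenced. The antibodies were a goat polyclonal antibody to FOXA2 and a rabbit polyclonal antibody to the elongating form of RNA polymerase II, which carries phosphate on serine 2 of its tail repeat (POL2 below). The 2 stages were PD12 and an adult stage, pseudopregnancy, which is labelled with days 2.5 and 3.5 together, and no label names a strain, a mutation or a treatment at either stage. Each of the 4 combinations of stage and antibody had 1 library. Stages could therefore be set side by side but not tested, and no p-value is given.

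FOXA2 is a forkhead transcription factor. In the uterus it is made in the epithelium of the glands, which form after birth and which secrete factors needed for implantation in the adult. Forkhead factors of this family can bind their sites in compact chromatin, and many of their sites lie far from the starts of genes. Phosphorylation of serine 2 marks polymerase that is elongating through the body of a gene, so a POL2 domain stands for transcribed sequence in some of the cells of the tissue. Long stretches without such a domain can hold silent genes or few genes. POL2-free below means without a listed domain, and transcription too weak or too rare in the tissue to be listed was not measured.

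Positions are printed as deposited, and the build is not named in the sources used here. Across the 4 lists, 260 intervals on 9 chromosomes lay beyond the last gene of their chromosome in GRCm38, 14 of them remote solitary intervals on 3 chromosomes, so the GRCm38 gene table could not place them. Neither the gene, exon or intron at a region nor its sequence is therefore given. The files hold no height, score or read count, so the depth behind each interval is unknown and width is the single property of an interval beside its position. More cells with FOXA2 at a site and more FOXA2 per cell cannot be told apart in whole uterus.

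The steps of the rule removed intervals as follows. Of the 10373 adult intervals, 3207 (30.9%) had a centre 100 kb or more from POL2. Of these 3207, 167 overlapped a PD12 FOXA2 interval by at least 1 bp, and a further 483 were adult-only but had another adult centre within 10 kb. The remaining 2557 were 79.7% of the adult intervals far from POL2 and 26.1% of the 9787 adult-only intervals. A neighbour within 10 kb was present for 15.9% (exact 95% binomial limits 14.7 to 17.2) of the 3207 far intervals and for 23.6% (22.6 to 24.6) of the 7166 nearer ones. Such limits cover counting error only, because intervals of 1 library are not replicates.

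The share of adult intervals that were also listed at PD12 was 5.65% over the whole adult list. It was 5.21% (4.46 to 6.03) far from POL2 and 5.85% (5.31 to 6.42) nearer to it. These limits overlapped, and the difference was not tested. Read from the PD12 list, in which 72.1% of all 814 intervals overlapped an adult one, 219 intervals (26.9%) lay 100 kb or more from POL2. Of these 219, 167 (76.3%, 70.1 to 81.7) overlapped an adult interval, against 420 of 595 (70.6%, 66.7 to 74.2) nearer to POL2. The PD12 list thus also reached into POL2-free space, and most of its far intervals were listed again in the adult.

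The intervals next to each limit of the rule were the following. Just inside the distance of 100 kb were chromosome 6, 94450033 to 94450760, chromosome 11, 99350618 to 99351157, and chromosome 4, 9690454 to 9690965, at 100.004 to 100.111 kb from POL2. Just outside were chromosome 1, 99768576 to 99769258, chromosome 1, 163274440 to 163275192, and chromosome 12, 53549056 to 53549789, at 99.8 to 99.918 kb. For the distance to the next adult FOXA2 centre, the nearest inside were at 10.047 and 10.084 kb, the latter being 2 remote solitary intervals that neighbour each other on chromosome 14, 100035212 to 100036015 and 100045243 to 100046152. The nearest outside was a pair 9.94 kb apart on chromosome 12, 83213758 to 83214324 and 83223598 to 83224360.

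The length of overlap with PD12 was measured for the isolated adult intervals far from POL2 that were listed at both stages, 139 in number. The smallest overlap among these was 131 bp, at chromosome 2, 90235172 to 90235463. The PD12 centre there lay 0.0115 kb from the adult centre, and the PD12 interval lay wholly inside the adult one. The 131 bp are therefore the width of that PD12 interval, the narrowest of its list, and not a marginal overlap. The remote solitary interval with the nearest PD12 centre was at chromosome 11, 26109731 to 26110397, where the PD12 centre lay 0.594 kb away. The next was at chromosome 13, 104821923 to 104823012, with a PD12 centre at 5.35 kb. These were the 2 of 2557 with a PD12 FOXA2 centre within 10 kb. The rule leaves little room for such centres. It bars PD12 overlap and other adult centres within 10 kb, and 72.1% of PD12 intervals overlapped an adult one. A PD12 centre within 100 kb was listed for 175 of the 2557 (6.84%, 5.90 to 7.89), against 967 of the 7230 other adult-only intervals (13.4%, 12.6 to 14.2). The POL2 limit places the 2557 where PD12 intervals were sparser, with 0.230 per Mb at 100 to 200 kb from POL2 against 0.390 at 10 to 50 kb. Both comparisons are therefore descriptions only.

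Remote solitary intervals lay at a median of 253 kb from the nearest POL2 edge (quartiles 154 and 469 kb). Of the 2557, 1558 (60.9%) lay 200 kb or more away, 586 (22.9%) 500 kb or more, 185 (7.24%) 1000 kb or more and 48 (1.88%) 2000 kb or more. The group thus reached deep into POL2-free sequence, while most of it lay within 500 kb of a listed domain.

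From 10 kb outward, adult FOXA2 intervals per megabase were fewer in each band farther from POL2. Isolated adult-only intervals, the same class without the POL2 limit, numbered 3.92 per Mb (exact Poisson 95% limits 3.65 to 4.20) within 10 kb of a domain edge, 4.48 (4.28 to 4.70) at 10 to 50 kb and 3.91 (3.68 to 4.15) at 50 to 100 kb. These bands cover sequence outside POL2 domains, and intervals centred inside a domain are in none of them. Among the bands outside domains, the one next to POL2 thus did not hold the most. Remote solitary intervals numbered 2.98 per Mb (2.80 to 3.17) at 100 to 200 kb, 1.97 (1.84 to 2.09) at 200 to 500 kb and 1.17 (1.05 to 1.29) at 500 to 1000 kb. Farther out there were 0.538 per Mb (0.452 to 0.636) at 1000 to 2000 kb and 0.345 (0.254 to 0.457) from 2000 kb on. Each band beyond the limit of the rule thus held fewer per megabase than the one before it, and the Poisson limits of the last pair overlapped narrowly. Far bands exist only in long gaps between domains, which held fewer per megabase, as given below. Distance and gap length were therefore not separated in these bands. Adult FOXA2 intervals of every class centred outside domains numbered 5.96 per Mb (5.63 to 6.30) within 10 kb and 6.09 (5.85 to 6.34) at 10 to 50 kb, with limits that overlapped. They numbered 5.15 at 50 to 100 kb, 3.82 at 100 to 200 kb and 0.395 from 2000 kb on. With domains included, autosomal space nearer than 100 kb to POL2 held 7.35 per Mb, more than any of these bands.

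**Figure D1:**
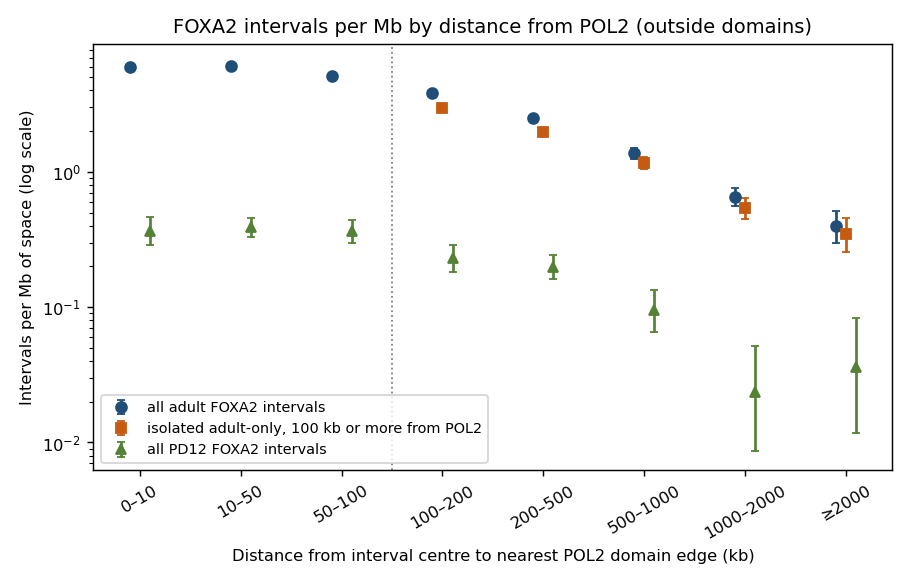
FOXA2 intervals per Mb of sequence outside POL2 domains (log scale) in bands of distance from the interval centre to the nearest POL2 domain edge of either stage, with exact Poisson 95% limits; the dotted line is the limit of 100 kb. Intervals centred inside a domain are not counted. Remote solitary intervals go from 2.98 per Mb at 100 to 200 kb to 0.345 per Mb at 2000 kb or more, and the PD12 list goes from 0.230 to 0.0359 per Mb over the same bands.

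The PD12 list, which the rule used only to remove overlaps, was also sparser beyond 100 kb, but not in every step. Those centred inside a POL2 domain are again in no band. Outside domains, PD12 FOXA2 intervals numbered 0.368 per Mb (0.290 to 0.461) within 10 kb of a domain, 0.390 (0.331 to 0.457) at 10 to 50 kb and 0.365 (0.297 to 0.444) at 50 to 100 kb. Farther away there were 0.230 (0.181 to 0.287) at 100 to 200 kb, 0.198 (0.161 to 0.242) at 200 to 500 kb and 0.0959 (0.0660 to 0.135) at 500 to 1000 kb. At 1000 to 2000 kb there were 0.0236 per Mb (0.00865 to 0.0513, from 6 intervals), and from 2000 kb on the density was higher, at 0.0359 (0.0117 to 0.0839, from 5), with limits that overlapped.

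All sequence 100 kb or more from POL2 came to 1567 Mb, 61.2% of the 2559.7 Mb between the first and last listed interval of each chromosome. Repeats and unassembled sequence could not be checked, so none was left out of this length or of any density given here. This space held 1.63 remote solitary intervals per Mb (1.57 to 1.70). Counting every adult FOXA2 interval, the far space held 0.283 times (0.272 to 0.296) as many per megabase as the nearer space, POL2 domains included. Among the 50% widest adult intervals this ratio was 0.183 (0.171 to 0.195). The far space was made of 2207 POL2-free gaps, a gap being the sequence between neighbouring POL2 domains of the joined lists, or between the last domain and the end of the listed span of a chromosome. A remote solitary interval was present in 1092 of these gaps (49.5%), and 504 gaps held exactly 1.

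Long gaps held a solitary interval more often, but fewer for their length. Of the 1143 gaps of 0.2 to 0.5 Mb, 29.4% held at least 1, and their far part had 3.60 per Mb (3.29 to 3.94). Of the 314 gaps of 1 to 2 Mb, 77.1% held at least 1, at 1.90 per Mb (1.76 to 2.05). Of the 37 gaps of 5 Mb or more, 33 held at least 1, at 0.553 per Mb (0.468 to 0.649). The highest number in a gap was 13, and 120 gaps held 5 or more.

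**Figure D2:**
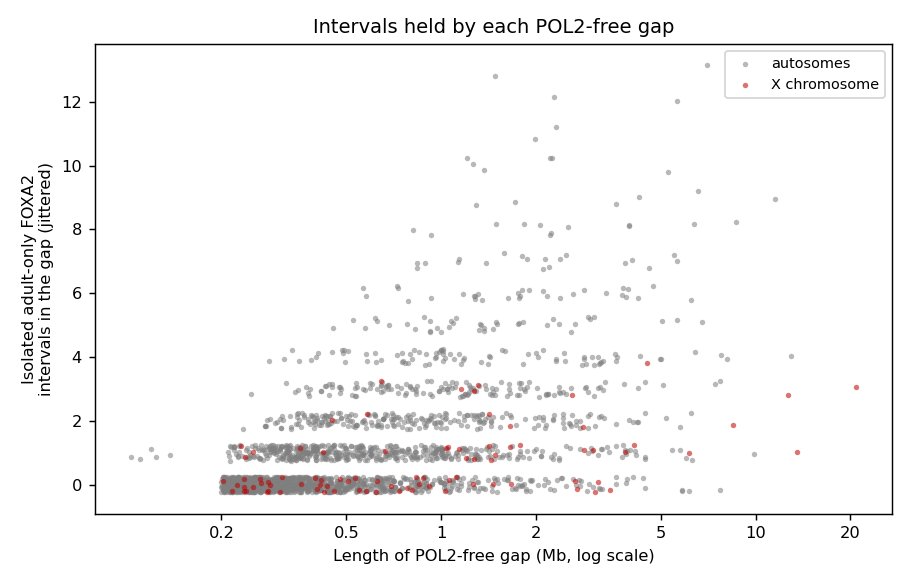
Number of remote solitary intervals in each of the 2207 POL2-free gaps (vertical axis, jittered) against gap length in Mb (log scale), with the X chromosome in red. The fullest gaps hold 13, one of them 1.48 Mb and the other 7.01 Mb long, and the longest gap, 20.9 Mb on the X chromosome, holds 3.

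Within gaps, the intervals were spread over the whole far part with an excess next to the limit. When the far part was divided into 4 equal parts by distance from POL2, the part nearest to POL2 held 31.8% (30.0 to 33.7) of 2545 intervals in gaps closed on both sides, where uniform placement gives 25%. The other parts held 23.2% (21.6 to 24.9), 22.2% (20.6 to 23.9) and 22.8% (21.1 to 24.4), the last being the middle of the gap. The limits of these inner parts overlapped each other and lay below 25%.

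The fullest gaps each held 13 remote solitary intervals. The first, at chromosome 18, 55141000 to 56625599, was 1.48 Mb long and held no other adult FOXA2 interval far from POL2 and no PD12 overlap. Its intervals were 414 to 1039 bp wide (median 600 bp) and followed each other at steps of 15.7 to 279 kb (median 66.8 kb), which is 10.1 per Mb of far sequence. The widest of them were at 55705493 to 55706531 (1039 bp) and 55362656 to 55363682 (1027 bp). They were spread from one end of the gap to the other, the first at 166 kb and the last at 1376 kb from its left end.

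The other, at chromosome 4, 74922800 to 81929399, was 7.01 Mb long and its 13 intervals fell into 2 groups at its ends. There were 5 between 75547102 and 76008158, and 8 between 80595593 and 81776165, with 4588 kb between the nearest centres of the groups. Widths ran from 315 to 839 bp (median 706 bp). The gap also held 3 adult intervals that the rule left out. A pair 3.92 kb apart, 80553922 to 80554433 and 80557698 to 80558499, lay at the left of the second group, and 80775540 to 80776227, inside that group, overlapped a PD12 interval. The stretch between the groups therefore held no adult FOXA2 interval up to this pair.

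**Figure D3:**
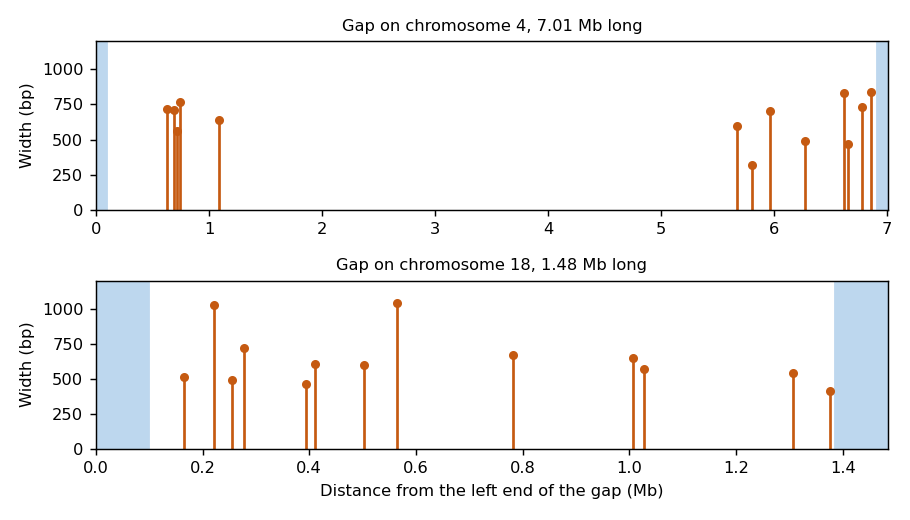
Width in bp of each remote solitary interval (vertical axis) against its distance in Mb from the left end of the gap, for the 2 gaps with 13 intervals; the shaded ends are the 100 kb next to POL2. In the 7.01 Mb gap the intervals form 2 groups, and in the 1.48 Mb gap they run along the whole gap.

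Other full gaps were picked after their values were seen. The highest density among gaps with 8 or more was at chromosome 8, 27270400 to 28084599, where 8 intervals of 565 to 839 bp lay within 369 kb, at 13.0 per Mb of far sequence. At chromosome 10, 67743200 to 68668199, 8 intervals of 398 to 1490 bp lay within 674 kb. Chromosome 3, 84635400 to 85842599, held 10 in a gap of 1.21 Mb, and chromosome 13, 30632800 to 31897999, held 10 in one of 1.27 Mb. In such gaps the word solitary describes the 10 kb limit only, because the intervals followed each other in a loose series.

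Empty gaps of great length were the opposite case. Empty means without a listed interval, because it was not checked whether reads could be placed throughout these gaps. Of the 230 gaps of 2 Mb or more, 37 held no remote solitary interval. They included 3 of 7 such gaps on chromosome 17, 5 of 18 on chromosome 7 and 5 of 17 on the X chromosome, and others lay on further chromosomes. There were none among the 8 on chromosome 10, the 6 on chromosome 9, the 6 on chromosome 15 and the 1 on chromosome 19. The longest empty gap was at chromosome 7, 39048800 to 46733999 (7.69 Mb), with no adult FOXA2 interval in its far part. Chromosome 1, 145854400 to 151671799 (5.82 Mb), and chromosome 7, 7253600 to 13068799 (5.82 Mb), held none either. At chromosome 17, 89051800 to 95208599 (6.16 Mb), the far part held 1 adult interval, which overlapped a PD12 one.

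The 10 intervals farthest from POL2 lay on 2 chromosomes, 5 on the X chromosome and 5 on chromosome 1. The farthest was at X, 117768701 to 117769381 (681 bp), 7558 kb from the nearest POL2 edge, and its nearest adult FOXA2 neighbour was X, 117338027 to 117338407 (381 bp), 431 kb away. Both lay in the longest gap, X, 110211000 to 131075799 (20.9 Mb), together with X, 126729769 to 126730313 (545 bp). This last interval was the most isolated of all, with 6119.7 kb to the next adult FOXA2 centre. The gap thus held 3 adult FOXA2 intervals in its far part, all of them remote solitary ones.

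On chromosome 1 the 5 farthest lay in a single gap, 108693600 to 120188599 (11.5 Mb). The deepest was at 114752578 to 114753181 (604 bp), 5436 kb from POL2. Its neighbours in the list were 113760445 to 113761040 (596 bp), 115309390 to 115309860 (471 bp), 115632400 to 115632915 (516 bp) and 115647921 to 115648639 (719 bp), the last pair 15.6 kb apart. The gap held 9 remote solitary intervals in all, 406 to 719 bp wide, among 11 adult FOXA2 intervals in its far part. By contrast, at chromosome 15, 12749600 to 25735199 (13.0 Mb), the 4 remote solitary intervals lay within 501 kb of each other near the right end, between 25117328 and 25618947. The far part of that gap held 8 adult FOXA2 intervals, and the places of those outside the rule are not given.

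Chromosomes differed in how many remote solitary intervals they held for their POL2-free length. Over the 19 autosomes there were 1.74 per Mb of far sequence (1.67 to 1.81), from 1.15 (0.936 to 1.39) on chromosome 7 to 2.46 (1.90 to 3.14) on chromosome 19. Chromosome 13 had 2.41 (2.07 to 2.80) and chromosome 11 had 2.15 (1.77 to 2.59). The X chromosome had 59 in 133 Mb, 0.444 per Mb (0.338 to 0.573), below the lower Poisson limit of every autosome.

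The low X density was not limited to the remote solitary intervals. Among all adult FOXA2 intervals the X chromosome had 2.68 per Mb (2.10 to 3.37) nearer than 100 kb to POL2 and 0.489 (0.377 to 0.623) farther away, against 7.35 (7.18 to 7.52) and 2.19 (2.11 to 2.27) on the autosomes. PD12 FOXA2 intervals on the X chromosome numbered 7. POL2 was sparse there as well, with 1.84 adult domains per Mb against 4.49 to 10.6 on single autosomes, and 83.0% of its listed span lay 100 kb or more from POL2. Remote solitary intervals made up 42.8% of the 138 adult FOXA2 intervals of the X chromosome, and from 16.9% to 30.8% on the autosomes.

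**Figure D4:**
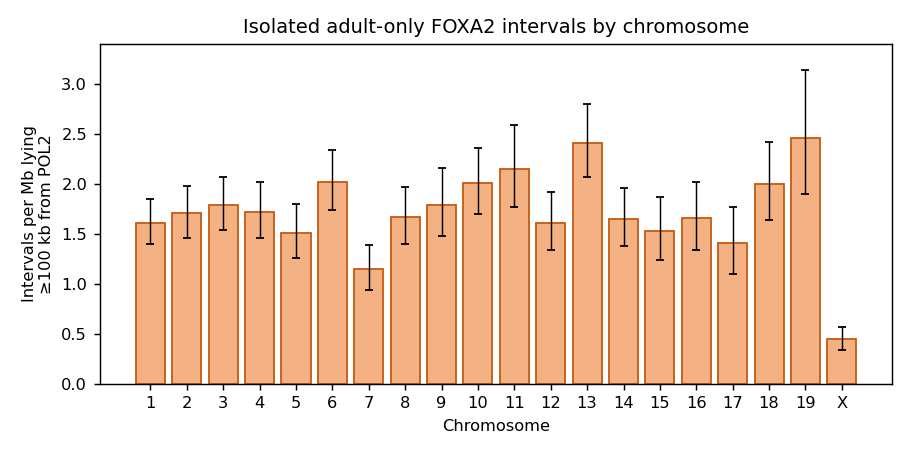
Remote solitary intervals per Mb of sequence lying 100 kb or more from POL2 (bars), with exact Poisson 95% limits, by chromosome. The autosomes lie between 1.15 and 2.46 per Mb and the X chromosome at 0.444.

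Of the classes of adult-only interval compared, remote solitary intervals had the lowest median width. Their median width was 617 bp (quartiles 513 and 727 bp), against 703 bp (576 and 843) for the other 7230 adult-only intervals, a difference of -86 bp. The opposite order-statistic 95% limits of the 2 medians differed by -99 to -74 bp. This range is not a 95% interval of the difference, and intervals of 1 library are not replicates. The median was 866 bp (695 and 1137) for the 1851 adult-only intervals in adult POL2 domains, 671 bp for the 1621 adult-only ones outside POL2 with a neighbour within 10 kb, and 666 bp for the 3638 isolated adult-only ones outside POL2 but nearer than 100 kb to it. Widths of 1 kb or more were seen in 78 of 2557 remote solitary intervals (3.05%, 2.42 to 3.79). They were seen in 6.98% (6.17 to 7.86) of the isolated ones nearer to POL2 and in 35.4% (33.2 to 37.6) of those in adult POL2 domains.

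The difference in width was found on each chromosome. The median of the remote solitary intervals lay below that of the other adult-only intervals on 20 of 20 chromosomes, by 23 bp on the X chromosome and by at most 119 bp. Those others include the wider intervals in POL2 domains, and chromosomes of 1 library are not replicates. The isolated adult-only intervals nearer to POL2, with a median of 666 bp, were not compared by chromosome. Median width also followed distance across the limit of the rule. Isolated adult-only intervals had a median of 665 bp at 10 to 50 kb from POL2 and 655 bp at 50 to 100 kb, and remote solitary ones 629 bp at 100 to 200 kb, 616 bp at 200 to 500 kb, 604 bp at 500 to 1000 kb and 580 bp at 1000 to 2000 kb. The 48 intervals at 2000 kb or more departed from this order with a median of 611.5 bp.

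**Figure D5:**
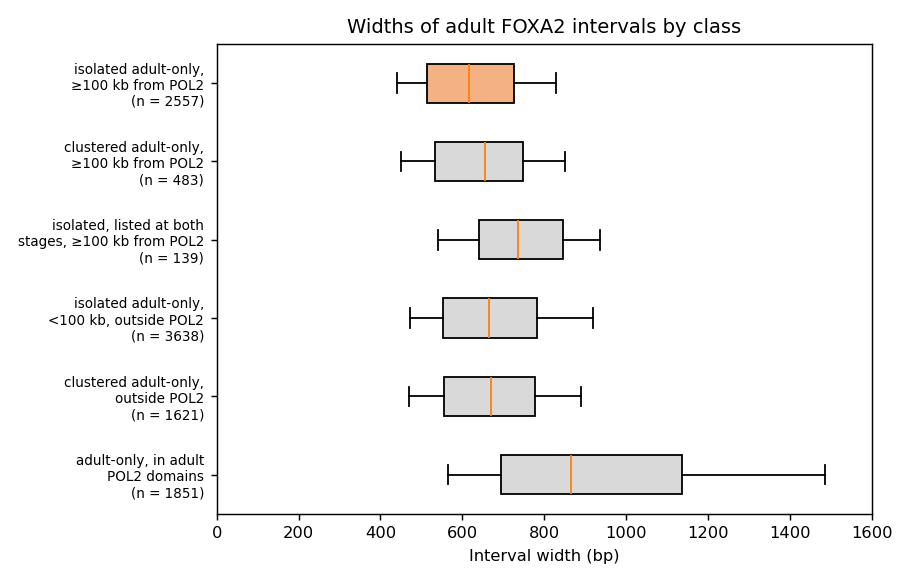
Widths in bp of classes of adult FOXA2 intervals; boxes are quartiles with the median, whiskers reach from the 10% to the 90% point, and n is given for each class. The remote solitary intervals (top) have the lowest median, 617 bp, and the adult-only intervals in adult POL2 domains the highest, 866 bp.

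Within the far space, the width of adult intervals also differed by neighbourhood and by whether they overlapped a PD12 interval. Remote solitary intervals with the next adult centre at 10 to 20 kb had a median of 650.5 bp (298 intervals), those at 50 to 100 kb 622 bp (516) and those at over 500 kb 587 bp (181). The 483 adult-only intervals far from POL2 that the 10 kb limit left out had a median of 655 bp. Isolated intervals far from POL2 that were also listed at PD12, which share every condition but the overlap, had a median of 737 bp (139 intervals, quartiles 640.5 and 845). Split into 5 equal parts by width, the isolated far intervals were listed at PD12 in 2.04% (1.02 to 3.62) of cases in the narrowest part, of 272 to 495 bp, and in 11.3% (8.77 to 14.3) in the widest, of 763 to 1772 bp. A wider interval meets another list more often by its length alone, and how much of this share is due to length was not tested.

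The widest remote solitary interval was at chromosome 16, 11504669 to 11506440 (1772 bp), 249.956 kb from POL2 and 47.6 kb from the next adult FOXA2 centre. Next came an interval of 1663 bp on the same chromosome, 52030709 to 52032371, and one of 1599 bp on chromosome 3, 19527735 to 19529333. Widths of 1598 bp were found on chromosome 1, 7387188 to 7388785, and on chromosome 14, 55919914 to 55921511. The remaining 5 of the 10 widest were at chromosome 10, 68355507 to 68356996 (1490 bp), in the dense gap named above, and at chromosome 5, 78096214 to 78097653, chromosome 7, 71300377 to 71301815, chromosome 13, 60702361 to 60703740, and chromosome 2, 70343164 to 70344487, which were 1324 to 1440 bp wide. All 10 lay 119 to 312 kb from POL2, so none of them was among the deepest. The 10 narrowest were 272 to 309 bp wide and lay 107 to 1105 kb from POL2, and the 10 farthest from POL2 were 343 to 719 bp wide.

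The next adult FOXA2 interval was most often another remote solitary one. The median distance to the next adult centre was 82.8 kb (quartiles 35.2 and 199 kb). The nearest neighbour was itself a remote solitary interval for 1613 of 2557 (63.1%, 61.2 to 65.0). It was an interval less than 100 kb from POL2 for 693 (27.1%), which were not split further. For the rest it lay 100 kb or more from POL2 and was a clustered adult-only interval for 141 and one listed at both stages for 110. Among all adult intervals 100 kb or more from POL2, 79.7% were remote solitary ones. The rule sets which intervals count as such, so the 63.1% is a description and not a measure of association among them. A neighbour within 50 kb was found for 35.4% (33.5 to 37.2), against 51.6% (50.2 to 53.0) of isolated adult-only intervals nearer to POL2. The members of this group were thus more widely spaced than those nearer to POL2 under the same 10 kb limit, in space that held fewer intervals per megabase.

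The POL2 domain nearest to a remote solitary interval was compared with the domains at the ends of far gaps. It was adult-only for 1112 of 2557 (43.5%, 41.6 to 45.4), PD12-only for 356 (13.9%, 12.6 to 15.3) and listed at both stages for 1089 (42.6%, 40.7 to 44.5). Among the 4405 domain edges that bound the gaps with far sequence, the shares were 43.6%, 14.6% and 41.8%. For isolated adult-only intervals nearer to POL2 they were 42.4%, 14.2% and 43.5%. The shares over all edges lay inside the 95% limits of those of the remote solitary intervals. Among the 2175 edges of gaps that held such an interval, the shares were 44.6% adult-only, 15.4% PD12-only and 40.0% at both stages, and the last 2 lay just outside those limits.

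Single domains nevertheless bordered many of these intervals. The 2557 had 1410 nearest domains, of which 815 were nearest to 1 interval and 67 to 5 or more. A PD12 domain listed at both stages, chromosome 7, 137297800 to 137313999 (16.2 kb), was nearest to 10. A PD12-only domain at chromosome 12, 41037200 to 41040599 (3.4 kb), was nearest to 9, and an adult-only one at chromosome 2, 169949400 to 169960399 (11 kb), to 8. These domains differ in stage, and no link between an interval and its nearest domain was measured.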

How the data were processed

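Per the labels' protocols, uterine tissue was fixed with formaldehyde, sonicated and immunoprecipitated, and input DNA was prepared. Per the submitters' processing notes, reads were handled with BWA. Its version, the caller, the threshold, the part played by the input and the genome build were not given in the sources used here. The deposited files give start and end positions only, in bp, per the file headers, with no score or count. Ends were counted as inclusive. The membership rule and the lists compared were chosen with earlier results of these data known. Distances run from an interval's centre to the nearest edge of any POL2 domain of the joined PD12 and adult lists, or to the nearest FOXA2 centre. Space was measured between the first and last listed interval of each chromosome. Shares have exact (Clopper-Pearson) and densities exact Poisson 95% intervals, for counting error only. Median widths have order-statistic limits, which treat the intervals of a library as independent and measure no spread between animals. The rule was tested on simulated lists, in which 200 of 200 planted intervals and none of 1000 near misses were taken. Regions named are the 10 widest, the 10 narrowest by range, the 10 farthest from POL2, those of the fullest gaps and those at the limits of the rule; other gaps, the most isolated interval and the domains named were picked after their values were seen. Python 3.11.15, numpy 2.4.6, pandas 2.3.3, scipy 1.17.1 and matplotlib 3.10.9 were used.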

Additional observations from a re-analysis of the deposited data

How the results depend on the processing

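Over 6 results and 9 alternatives, all planned, 17 of 30 values lay inside the limits of the value reported above, or within 1.5 times for the count. The limits were 95% limits, or for the width difference the range given above. The other 13 moved outside, and no difference changed sign. The count of 2557 was 1558 with a POL2 distance of 200 kb and 958 when only the 50% widest adult FOXA2 intervals were kept; its other alternatives gave 2259 to 3638. The median width of 617 bp was 625.5 bp at 50 kb, 607 bp at 200 kb and 774 bp in the 50% widest intervals, and the difference of -86 bp from other adult-only intervals was -56 bp there. That alternative filters on width itself, so its widths follow from the filter and say nothing on the stability of these results. The share of far adult intervals that were remote and solitary, 79.7%, was 85.6% with isolation of 5 kb, 70.4% with 20 kb and 82.6% in the 50% widest. The share of far intervals overlapping PD12, 5.21%, was 8.71% in the 50% widest. The density of far relative to nearer space, 0.283, was 0.313 at 50 kb, 0.246 at 200 kb and 0.183 in the 50% widest. No paired analysis was possible because no group held more than 1 library. The planned forkhead motif and nearest gene were not run, since no genome or annotation of the build was used. Unknown depth limits every statement on what is listed at 1 stage alone.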
